A study of Homo sapiens with 12 samples.

Results

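The major histocompatibility complex (MHC) is a gene-dense block on the short arm of chromosome 6. Its H3K27ac peaks were described here together with those on the 7 alternate haplotype sequences that the hg19 assembly adds for the same block. The members were all peaks of 9 broad-peak lists that lay on chr6:28477797-33448354 (hg19), a span of 4.97 Mb, or on a sequence named chr6_apd_hap1, chr6_cox_hap2, chr6_dbb_hap3, chr6_mann_hap4, chr6_mcf_hap5, chr6_qbl_hap6 or chr6_ssto_hap7. Peaks that overlapped or touched were merged over the 9 lists within each sequence. This gave 1055 regions of 121531 in all, 158 on chromosome 6 and 897 on the haplotype sequences, made from 7478 of the 667017 listed peaks.

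The cells were MDA-MB231, an established breast cancer line. They had been infected with lentivirus carrying an empty-vector control (EV-control; Control), an shRNA against CDK19 (CDK19KD) or an shRNA against CDK8 (CDK8KD), and were grown for 96 h before chromatin was taken. CDK8 and CDK19 are the paralogous kinases of the Mediator complex. Each group had 3 native ChIP libraries made with an antibody to H3K27ac, the histone acetylation found at active promoters and enhancers. The 3 input libraries, from EV-control cells without antibody, were not analysed here. The labels give neither the shRNA sequences nor the number of hairpins, and no CDK8 or CDK19 level is among the values, so the knockdown was not checked. They do not say that the replicates were separate cultures, so a p-value measures only the spread between these samples. Each library pools many cells, and fewer cells with the mark cannot be told apart from less mark per cell.

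The MHC falls into 3 classical parts. The class I part holds the genes whose products present peptides from inside the cell to cytotoxic T cells, and these are expressed by nearly all nucleated cells. The class II part holds the genes whose products present taken-up antigen, which are normally expressed by professional antigen-presenting cells and in other cells only after induction, for example by interferon gamma. The class III part, between them, is crowded with unrelated genes such as those for complement components, tumour necrosis factor and heat-shock proteins. Because MHC alleles differ strongly between people, the assembly carries alternate sequences, and a read that fits chromosome 6 and an alternate equally well has no single place. No hg19 annotation or genome was used here, so peaks are given by position and part, without gene names or bases. The parts are ranges of position with bounds set by hand. A region placed in a part need not lie at the genes described for it.

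Each list held between 110 and 147 peaks in the chromosome 6 MHC, with a median of 134, and between 619 and 774 on the haplotype sequences. The lists carry no read counts, so the depth of the libraries is unknown. Peaks covered between 4.72% and 8.90% of the chromosome 6 MHC, with a median of 7.51%. The stretches of equal length on either side were covered more, from 10.9% to 15.6% before it and from 20.6% to 31.1% after it. The lowest flank value was thus above the highest MHC value. Whether reads shared with the haplotype sequences lower the MHC cover was not tested. No peak crossed either border of the MHC.

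Coverage was ordered in the same way in every library. The class III part was covered most, from 7.29% to 19.1% of its 0.870 Mb. The class II part followed, with 4.74% to 7.98% of 1.10 Mb, and the class I part was lowest, with 3.39% to 6.58% of 3 Mb. This order held in 9 of 9 libraries. The density of merged regions put class III first as well, with 54.0 regions per Mb against 28.3 in class I and 23.7 in class II. In numbers, class I held 85 regions, class III 47 and class II 26.

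Regions of the MHC were often shared between lists. Of the 158 on chromosome 6, 72 (45.6%) were held by all 9 libraries, beside 28.3% on chromosomes 1 to 22 and X and 28.9% on chromosome 6 outside the MHC. Those seen in a single library made up 9.49%, beside 38.5% on chromosomes 1 to 22 and X. On the haplotype sequences 40.7% were held by all 9 and 15.3% by a single library. These shares are a description, with no test. By part, they were 44.7% held by all 9 in class I, 48.9% in class III and 42.3% in class II. The median merged region was 2682 bp wide in the chromosome 6 MHC, 2410 bp on the haplotype sequences and 1938 bp on chromosomes 1 to 22 and X.

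**Figure D1:**
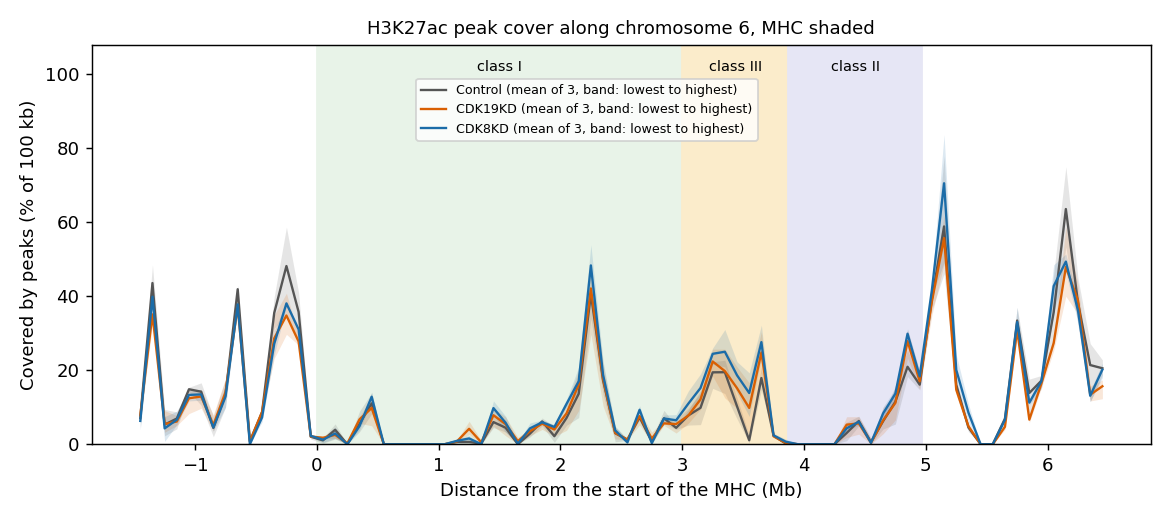
Percent of each 100 kb stretch covered by H3K27ac peaks (vertical axis) against the distance in Mb from the start of the chromosome 6 MHC (horizontal axis), drawn as the mean of each group with a band from its lowest to its highest library. Class III has the highest cover only as an average over the part: the most covered stretch of the MHC, centred 2.25 Mb from its start, lies in class I, with 29.7% to 53.9%, and long stretches of classes I and II hold no peak in any library.

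Much of the MHC held no peak in any list. The longest empty stretch, chr6:28973263-29616650, measured 643 kb and lay in class I. The next, chr6:32339096-32804731, measured 466 kb and took up most of the start of class II. Another stretch of 136 kb, chr6:32987658-33123465, also lay in class II. For comparison, the longest empty stretch was 721 kb in the equal span before the MHC and 278 kb in the one after it. In every library most of the class II cover lay beyond the last of these gaps, near the end of the MHC.

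The chromosome 6 MHC held few strong peaks. Whether reads shared with the haplotype sequences lower their strength was not tested. Strength is given as the fold enrichment that the authors' peak caller wrote for each peak, with its −log10 p. Percentiles, and the strongest 10% of a list, rank the peaks by −log10 p and not by fold enrichment. The highest fold enrichment in the chromosome 6 MHC lay between 3.65 and 6.39 over the 9 lists, while the highest on chromosomes 1 to 22 and X outside it lay between 8.40 and 12.5. In the equal spans before and after the MHC the highest value per list lay between 7.19 and 10.7 and between 6.25 and 10.1. Only 0 to 1 MHC peaks per list stood among the strongest 10% of that list, at most 0.763% of its MHC peaks. In the span before the MHC, 29.1% to 36.1% of the peaks were among them, and in the span after it 15.8% to 29.1%. The typical peak differed less: the median fold enrichment was 2.56 to 2.85 in the MHC and 2.46 to 2.97 in the rest of the lists. The MHC median was the lower in every list but those of Control replicates 2 and 3 and CDK8KD replicate 3. The median percentile of MHC peaks by −log10 p was 40.8 to 61.9 per list, with a median of 44.6. It was highest in Control replicate 3 (61.9) and CDK8KD replicate 3 (53.1). The median width of MHC peaks was 1215 to 2284 bp per list and that of the rest 1969 to 3167 bp. MHC peaks were the narrower in 8 of 9 lists, and the wider in Control replicate 3, with 2151 against 1969 bp.

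**Figure D2:**
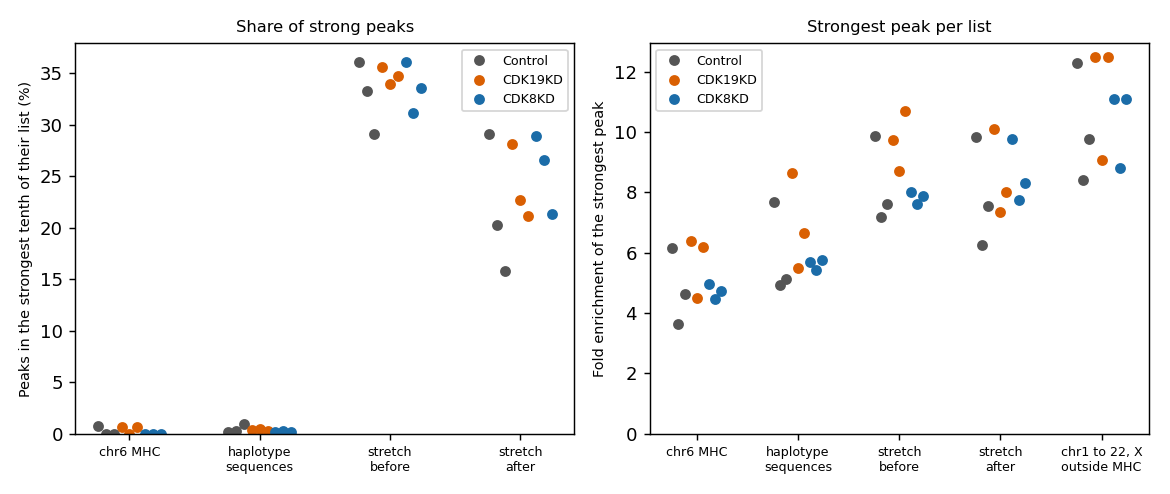
Left, the percent of peaks among the strongest 10% of their own list by −log10 p (vertical axis), one point per library. Shown are the chromosome 6 MHC, the haplotype sequences and the equal-length stretches before and after the MHC. Right, the highest fold enrichment per library, with chromosomes 1 to 22 and X outside the MHC added. The MHC points stay between 0 and 0.763%, while both flanks lie at or above 15.8%.

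The strongest regions of each part were ranked by their mean percentile within the 9 lists. In class I the first was chr6:30708601-30757020, a merged region of 48420 bp and the longest of the chromosome 6 MHC. Its fold enrichment ran from 3.29 over a median of 4.19 to 4.70, its −log10 p from 4.90 to 11.7, and its peaks covered 26.1 to 47.4 kb per library. The second in class I, chr6:28862007-28867293, had fold enrichments from 3.35 to 4.75. The mean percentiles of these regions were 75.6 and 73.7, so in an average list other peaks outranked even the leading class I regions.

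In class III the first region was chr6:31788454-31805850, with fold enrichments from 3.16 to 4.69 around a median of 3.73 and a mean percentile of 71.6. Its peaks covered 6.95 to 15.4 kb. The other leading class III regions, chr6:32093928-32099559, chr6:31779802-31785359, chr6:31700397-31709339 and chr6:31874543-31881507, had mean percentiles from 64.0 to 64.8. Class III thus had the most regions per Mb and the widest median region, 3346 bp against 2405 bp in class I and 2570 bp in class II. Over the regions held by all 9 libraries its median percentile, 55.5, lay between those of class I, 50.2, and class II, 59.1.

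The strongest region of the whole chromosome 6 MHC lay in the class II part, at chr6:33357663-33389496, near the far border, and no gene was assigned to it. This region was 31834 bp long and had a mean percentile of 84.6. Its fold enrichment was 6.17, 3.65 and 3.68 in Control, 6.39, 4.43 and 6.19 in CDK19KD, and 4.98, 4.48 and 4.39 in CDK8KD. The 3 groups overlapped, and Control alone ran over most of the range of the 9 values. The next class II regions, chr6:33419367-33424157 and chr6:33389832-33397223, lay beside it, with mean percentiles of 73.2 and 72.8. Of the 5 leading class II regions, 4 lay beyond the 136 kb gap, and chr6:32933924-32942117, with a mean percentile of 59.7, lay before it.

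The haplotype sequences, which hold more regions, also held the strongest peaks of the MHC. Their highest fold enrichment per list was 4.93 to 8.63, and 9 haplotype regions had a mean percentile of at least 80, against 1 region on chromosome 6. The median over the regions held by all 9 libraries was the same, at 52.2, for the 72 on chromosome 6 and the 365 on the haplotype sequences. The haplotype sequences together had between 4.71 and 5.13 times the covered length of the chromosome 6 MHC. By sequence, the regions numbered 59 on apd, 161 on cox, 142 on dbb, 118 on mann, 136 on mcf, 149 on qbl and 132 on ssto. Covered length per library ran from 57.3 to 133.0 kb on apd, the lowest, and from 230.3 to 418.5 kb on qbl, the highest.

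To set each haplotype region beside chromosome 6, blocks of 500 kb were slid along the chromosome 6 MHC and the shift with the largest overlap of covered bases was kept. These matches were picked for overlap, so they are approximate and serve only as a description. They placed 70.3% to 87.6% of each haplotype's covered bases within chromosome 6 regions. With a single shift for a whole sequence, the best shift placed 47.0% to 57.2% and the median shift 14.6% to 17.2%. Of the 897 haplotype regions, 717 (79.9%) had a chromosome 6 counterpart and 180 (20.1%) had none. Those with a counterpart were held by all 9 libraries in 330 cases (46.0%) and had a median width of 2753 bp. Those without one were held by all 9 in 35 cases (19.4%) and had a median width of 1240 bp. Any overlap counted as a counterpart, a rule that wider regions meet more easily, so these differences follow in part from the matching. On chromosome 6, 21 regions had a counterpart on all 7 haplotype sequences and 11 on none. Among chromosome 6 regions held by all 9 libraries, the median percentile was 59.5 for the 6 with 0 or 1 haplotype counterparts. It was 52.3 for the 36 with 2 to 5 and 52.1 for the 30 with 6 or 7. The ranges of these sets overlapped, and the difference was not tested.

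The strongest of all members was chr6_dbb_hap3:1185522-1192267, with a mean percentile of 94.8. Its fold enrichment was 7.69, 4.93 and 5.12 in Control, 8.63, 5.49 and 6.65 in CDK19KD, and 5.54, 5.41 and 5.76 in CDK8KD, and its −log10 p ran from 10.6 to 32.5. The matched chromosome 6 region in class I, chr6:29891936-29895502, had a median of 3.12 and a highest value of 3.55. The dbb value was the higher in 9 of 9 libraries, and the lowest dbb value was above the highest on chromosome 6. Beside it on the same haplotype, chr6_dbb_hap3:1200683-1207330 had fold enrichments of 4.43 to 6.45, and no counterpart was found on chromosome 6.

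A second such place was shared by 2 haplotypes. The regions chr6_ssto_hap7:2791460-2798768, with a median fold enrichment of 5.09, and chr6_qbl_hap6:2753796-2761092, with a median of 4.64, were both matched to chr6:31460587-31466451. That chromosome 6 region had a median of 3.22 and a highest value of 3.46. Both haplotype regions were above it in 9 of 9 libraries. On mcf, chr6_mcf_hap5:1311431-1321764 had a median of 4.88 against 2.86 for chr6:29931701-29937271, and was the higher in 8 of 9.

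Other strong haplotype regions did not stand apart from chromosome 6 in this way. The ssto and mcf regions chr6_ssto_hap7:4837778-4877199 and chr6_mcf_hap5:4831312-4832870 were matched to the strongest class II region of chromosome 6 and were the higher in 5 of 9 libraries each. The qbl counterpart of the longest class I region, chr6_qbl_hap6:2000788-2050387, was the higher in 7 of 9. The leading regions of the remaining haplotypes were lower, with median fold enrichments of 3.82 on apd, 3.95 on cox and 4.10 on mann. How the peaks of near-identical sequences divide the reads was not tested, and a different allele and a different share of the same reads cannot be told apart in these lists.

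**Figure D3:**
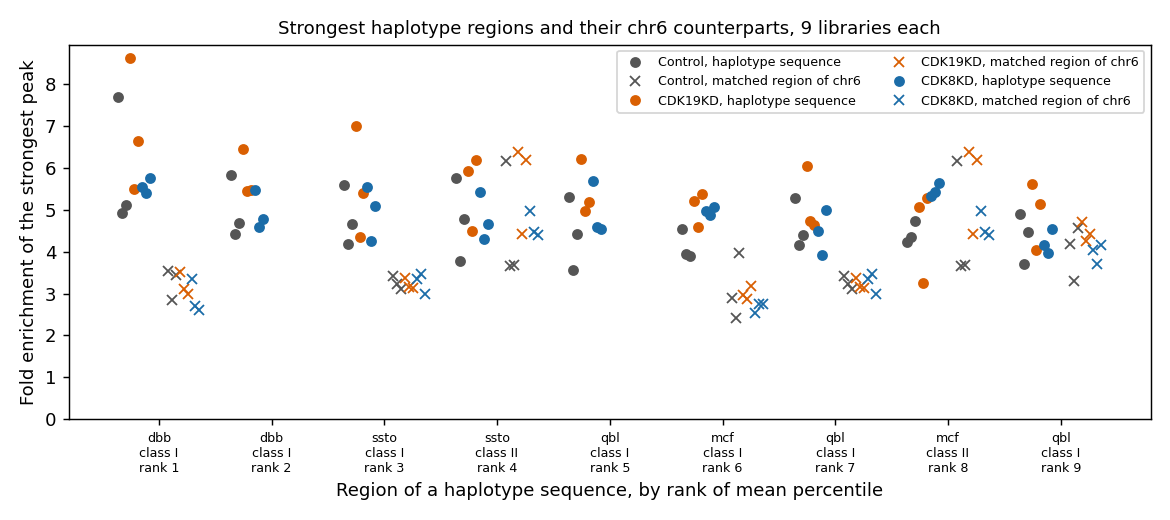
Fold enrichment (vertical axis) in each of the 9 libraries for the 9 strongest haplotype regions and, where one was found, for the matched chromosome 6 region. The first dbb region lies between 4.93 and 8.63, and its chromosome 6 match does not exceed 3.55.

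The study's design compares the 3 groups, and the covered length of the chromosome 6 MHC was compared first. It was 352.0, 234.8 and 312.3 kb in Control, 396.7, 238.3 and 416.4 kb in CDK19KD, and 375.7, 373.1 and 442.3 kb in CDK8KD. Every CDK8KD library was above every Control library, while the CDK19KD values overlapped both groups. Set beside the Control library of the same replicate number, CDK19KD was higher in 3 of 3 pairs, as was CDK8KD, each with a paired exact permutation p of 0.25, the smallest that 3 pairs allow. The means were 300 ± 59.6 kb, 350 ± 97.6 kb and 397 ± 39.2 kb (SD, n = 3 each). Group took up 32.7% of the variance, which did not pass an exact permutation test over the 280 arrangements of the libraries (p = 0.304, adjusted p = 0.506 over the 6 measures tested). Between CDK8KD and Control alone the ratio was 1.32, with a two-sided exact permutation p of 0.1, the smallest that 3 against 3 allow.

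The 3 parts went in the same order of means but overlapped to different degrees. Class III covered 101.7, 63.46 and 99.44 kb in Control, 118.2, 79.80 and 144.5 kb in CDK19KD, and 113.9, 136.2 and 166.1 kb in CDK8KD. It showed the largest ratio of CDK8KD to Control among the 3 parts, 1.57, again without overlap and with an exact permutation p of 0.1. Group took up 46.5% of its variance (exact permutation p = 0.157, adjusted p = 0.506). With arrangements kept within replicate numbers the exact permutation p, unadjusted, was 0.0556, the smallest of the 6 measures. Kept in this way, the exact permutation p was 0.139 for the chromosome 6 MHC and for class II and 0.361 for class I. It was 0.167 for the haplotype sequences and 0.278 for the MHC share of covered length. Class II covered 64.7 ± 11 kb in Control and 81.0 ± 5.77 kb in CDK8KD, a ratio of 1.25, also without overlap (exact permutation p = 0.1). Class I covered 147 ± 29.7 kb and 177 ± 16.3 kb, a ratio of 1.21 with overlap (exact permutation p = 0.2). CDK8KD was above its same-numbered Control in 3 of 3 pairs in each part (paired exact permutation p = 0.25 each). CDK19KD was above its same-numbered Control in 3 of 3 pairs in classes III and II and in 2 of 3 in class I (paired exact permutation p = 0.25, 0.25 and 0.5). It had intermediate means of 162 ± 52.8 kb in class I, 114 ± 32.6 kb in class III and 73.8 ± 14.9 kb in class II. Whether the ratio differed between the parts was not tested.

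The haplotype sequences together covered 1509 ± 341 kb in Control, 1708 ± 507 kb in CDK19KD and 1943 ± 220 kb in CDK8KD (SD, n = 3 each), with overlap between all groups (exact permutation p = 0.411, adjusted p = 0.506). As a share of the length covered on chromosomes 1 to 22 and X, the chromosome 6 MHC made up 0.103 ± 0.0296%, 0.131 ± 0.0347% and 0.131 ± 0.00677% (exact permutation p = 0.421, adjusted p = 0.506). Scaled in this way, CDK8KD and CDK19KD had the same mean, and the groups were not separated. Replicate 2 of Control and of CDK19KD had the lowest MHC cover of their groups. These libraries also had the lowest −log10 p maxima outside the MHC, 25.9 and 25.6, against 34.7 in CDK8KD replicate 2 and 51.6 to 64.0 in the others. The part of this in the group means was not tested.

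**Figure D4:**
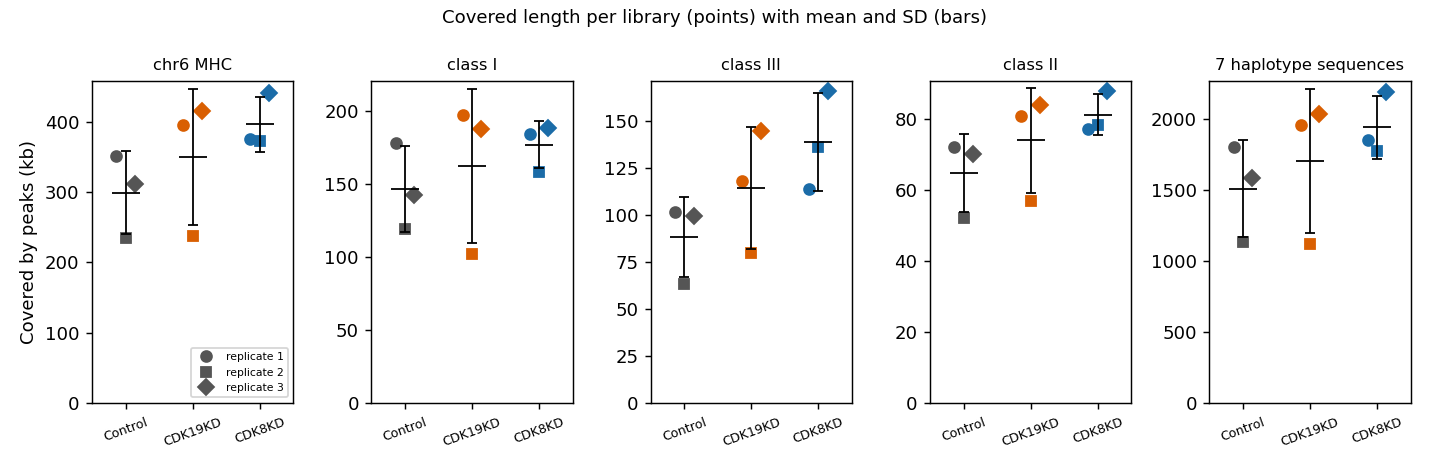
Covered length in kb (vertical axis) per library for the chromosome 6 MHC, its class I, III and II parts and the haplotype sequences, with the mean and SD of each group of 3. CDK8KD lies above Control without overlap in the whole chromosome 6 MHC and in classes III and II, and CDK19KD overlaps both.

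At finer scale, the covered share of 10 kb windows was fitted across all 78702 windows with limma and adjusted by Benjamini-Hochberg over all of them. The MHC held 128 of these windows on chromosome 6 and 646 on the haplotype sequences. None of the 128 passed an adjusted p of 0.05 in any of the 3 comparisons by limma. At an unadjusted limma p under 0.05, CDK8KD exceeded Control in 16 of the 128 (12.5%, beside 10.5% of all windows at that threshold) and fell below it in 0 (4.12% of all). Under the same limma threshold CDK19KD was above Control in 3 (2.34%, beside 4.39% of all) and below it in 0 (5.51% of all). It was above CDK8KD in 1 (0.781%, beside 3.46%) and below it in 6 (4.69%, beside 11.1%). The first of these shares was thus near the background, and the others were below it. At an adjusted limma p under 0.05, the share of all windows in which CDK8KD exceeded Control was 0.633%, and that in which it fell below was 0.0851%. The corresponding shares for CDK19KD were 0.0546% above and 0.0229% below Control, and 0.222% above and 0.775% below CDK8KD.

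The signs of the window differences leaned one way. In CDK8KD against Control 107 of the 128 chromosome 6 windows (83.6%) were higher, against 55.4% of all windows. The median difference was 5.3 percentage points in the MHC and 0.94 over all windows. By part, 39 of 41 class III windows were higher with a median of 11 points, 49 of 64 class I windows with 4.2 points, and 19 of 23 class II windows with 5.4 points. In CDK19KD against the same Control libraries 88 of 128 (68.8%) were higher, against 40.3% of all windows. Leaving out 1 library moved the first count between 95, without Control replicate 2, and 114, without Control replicate 1. It moved the second between 68, without CDK19KD replicate 1, and 107, without CDK19KD replicate 2. Neighbouring windows share peaks, so these counts are a description.

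The chromosome 6 window nearest to a call was chr6:31870001-31880000 in class III. Its covered share was 40.3%, 32.5% and 37.4% in Control, 50%, 43.8% and 61.2% in CDK19KD, and 65.2%, 59.2% and 67.3% in CDK8KD. All CDK8KD values were above all Control values, by 27.1 points on average (SE 5.98, limma adjusted p = 0.0976). The region beneath it, chr6:31874543-31881507, covered 4.03, 2.85 and 3.74 kb in Control, 5.48, 3.78 and 6.33 kb in CDK19KD, and 6.57, 6.62 and 6.71 kb in CDK8KD. The peaks thus covered more of it in every CDK8KD library than in any other. A second class III window, chr6:32010001-32020000, was at 0% in all 3 Control libraries, at 0%, 2.5% and 13.1% in CDK19KD, and at 12.2%, 22.5% and 37.6% in CDK8KD (limma adjusted p = 0.152).

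On the haplotype sequences 4 of 646 windows were called, all higher in CDK8KD than in Control, and all 4 were matched to class III. The background share for that direction was the 0.633% given above, so 4 of 646 is near that background. One of them, chr6_dbb_hap3:3250001-3260000, had covered shares of 0%, 8.31% and 6.94% in Control, 23%, 14.2% and 23.8% in CDK19KD, and 40.2%, 50.4% and 46.8% in CDK8KD. The 3 groups did not overlap. CDK8KD was higher than Control by 40.7 points (SE 4.38, limma adjusted p = 0.0224). CDK19KD was lower than CDK8KD with a difference of -25.5 points (limma adjusted p = 0.0486). That was the only 1 of the 646 haplotype windows called in this direction, beside 0.775% of all windows. With any 1 library left out, 0 were called in it. CDK19KD against Control, at 15.2 points, was not called (limma adjusted p = 0.335).

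The matched chromosome 6 stretch, chr6:31964298-31974297, held 0%, 0% and 24.6% in Control, 11.6%, 21.3% and 28.0% in CDK19KD, and 23.2%, 38.8% and 41.2% in CDK8KD. The order of the means was the same, but Control replicate 3 there was above the lowest CDK8KD value. At the same place on other haplotypes, cox had 0% in Control and a mean of 22.1% in CDK8KD, qbl 0% and 26.0%, and ssto 7.51% and 35.9%. No list had a peak there on apd, mann or mcf, and whether those sequences are assembled at that place was not tested. These near-identical copies may share reads, so they are not replicates of each other.

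The second dbb window, chr6_dbb_hap3:3280001-3290000, was at 0%, 0% and 9.24% in Control, 26.8%, 25.3% and 26.2% in CDK19KD, and 32.5%, 37.4% and 39.5% in CDK8KD. CDK8KD was higher than Control by 33.4 points (SE 3.62, limma adjusted p = 0.0228), while the 23.1 points of CDK19KD over Control were not called (limma adjusted p = 0.109). CDK19KD against CDK8KD, at -10.3 points, was not called either (limma adjusted p = 0.244). Its chromosome 6 match, chr6:31994298-32004297, had 0%, 0% and 10.2% in Control and 22.1%, 18.7% and 14.4% in CDK8KD, without overlap. On cox, chr6_cox_hap2:3340001-3350000 was at 0% in all Control libraries, at 4.36%, 11% and 15% in CDK19KD, and at 21.0%, 21.5% and 22% in CDK8KD. Its difference was 21.5 points (SE 3.24, limma adjusted p = 0.0407). Its chromosome 6 match did not follow it, with 3.62%, 3.54% and 19.4% in Control and 0%, 16.7% and 23.8% in CDK8KD.

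The other cox window, chr6_cox_hap2:3550001-3560000, was already well covered in Control, at 35.7%, 34.1% and 23.2%. It reached 55.5%, 53.3% and 60.0% in CDK19KD and 64.5%, 62.0% and 65.8% in CDK8KD. The 33.1 points between CDK8KD and Control were called (SE 5.21, limma adjusted p = 0.0437), and the 25.3 points between CDK19KD and Control were not (limma adjusted p = 0.188). On its chromosome 6 match, chr6:32079298-32089297, Control had 30.2%, 46.8% and 25.7% and CDK8KD 41.3%, 72.1% and 61.7%, with overlap. CDK19KD had 56.0%, 70.7% and 75.2% there, above every Control value. The number of calls depended on the libraries kept: without Control replicate 2 or without CDK8KD replicate 3, 0 haplotype windows were called in this direction. Without CDK19KD replicate 1, 2 or 3, which are in the fit but not in this comparison, it was 1, 1 and 2. None of the 4 calls remained with the lists held to −log10 q of at least 5 or to their 20000 strongest peaks.

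**Figure D5:**
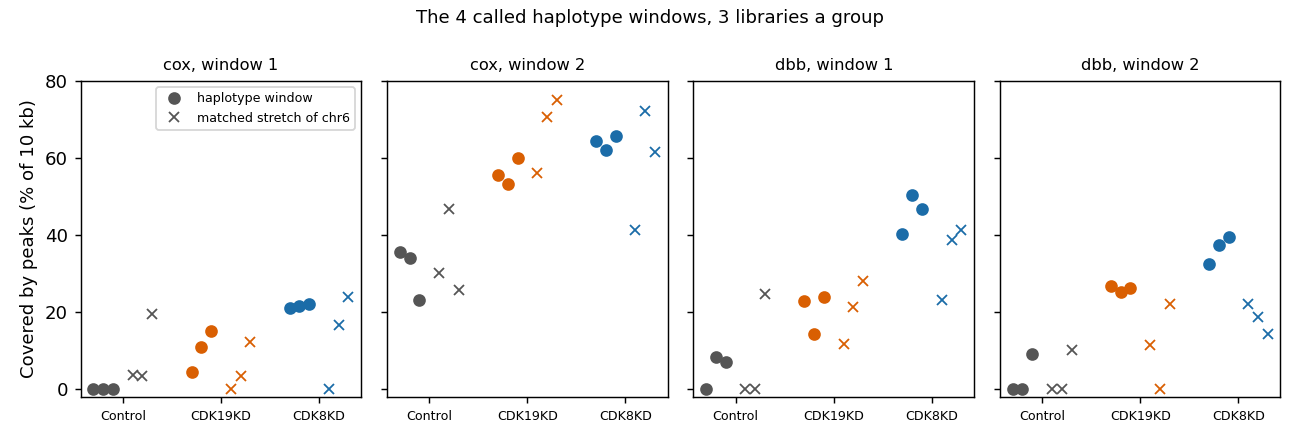
Covered percent (vertical axis) of the 4 haplotype windows called higher in CDK8KD than in Control, by group; circles are the 3 libraries on the haplotype sequence and crosses the same libraries on the matched chromosome 6 stretch. The circles of CDK8KD lie above those of Control in all 4 windows, while their crosses overlap in 3 of the 4.

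Regions present in all 3 libraries of one group and in none of another were counted next. In CDK8KD but not Control there were 3 on chromosome 6 (1.90%) and 11 on the haplotype sequences (1.23%), against 0.609% of all regions. In CDK19KD but not Control there were likewise 3 (1.90%) and 11 (1.23%), against 0.604%. In the opposite direction, 0 MHC regions on chromosome 6 and 1 on the haplotypes were in Control but not CDK8KD, against 0.388%, and 1 and 2 in Control but not CDK19KD, against 0.419%. Between the knockdowns, 2 and 9 were in CDK19KD but not CDK8KD, against 0.824%, and 0 and 6 in CDK8KD but not CDK19KD, against 0.771%. The comparisons with Control share the same 3 Control libraries. Copies of one place on several sequences were counted as separate regions. A region seen in a single library cannot be exclusive to a group. Such regions made up 38.5% on chromosomes 1 to 22 and X, but 9.49% in the chromosome 6 MHC and 15.3% on the haplotype sequences. The shares are thus not of like sets, and they were not tested.

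The exclusive regions on chromosome 6 had low fold enrichments, all under 3, and were 283 to 3758 bp wide. The widest, chr6:32013404-32017161 in class III, had fold enrichments of 2.60, 2.5 and 2.99 in CDK8KD and 2.66 and 2.15 in CDK19KD replicates 2 and 3, and no peak in Control or CDK19KD replicate 1. In class I, chr6:29757168-29760437 had peaks only in CDK19KD, with fold enrichments of 2.29, 2.41 and 2.16 and lengths of 3.16, 0.776 and 1.28 kb. Also in class I, chr6:29691402-29691684 was listed at 0.250 kb in each CDK19KD library and in no other. The Control region absent from CDK19KD, chr6:31374970-31376958, had fold enrichments of 2.23, 2.25 and 2.37 in Control, and peaks in 2 of 3 CDK8KD libraries. A list leaves out peaks under its threshold, so absence does not show that the mark was absent.

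On the haplotype sequences, 2 regions were in all 6 knockdown libraries and in no Control library. Both are among the 11 counted above for each knockdown, and the share of all regions held in this way was not counted. The first, chr6_mcf_hap5:3453959-3457860, had fold enrichments of 2.66 to 2.99, and the second, chr6_qbl_hap6:3263001-3266452, of 2.66 to 2.86. Both were matched to class III. The chromosome 6 match of the first, chr6:32074271-32087348, had peaks in 9 of 9 libraries, with 3.34, 4.67 and 2.57 kb in Control, 6.25, 8.23 and 9.11 kb in CDK19KD, and 5.52, 11.7 and 8.02 kb in CDK8KD. All knockdown values there were above all Control values. The match of the second, chr6:31968388-31972746, had peaks in Control replicate 3 as well, with 2.46 kb. The match of the first is 13078 bp wide and the mcf region 3902 bp, so these lengths do not compare the same place. Most of its Control cover lay in the later part: chr6:32079298-32089297 was 30.2%, 46.8% and 25.7% covered in Control. The stretch of mcf matched to that later part, chr6_mcf_hap5:3459001-3469000, had Control peaks too, at 37.6%, 32.5% and 17.2%. For the second region, the absence from Control held on qbl and not on chromosome 6.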

How the data were processed

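The deposited files were 9 broad-peak lists, 1 per H3K27ac library. MACS2, deepTools and hg19 are named, without versions, per the submitters' processing notes; caller settings are not given in the sources used here. In each list the authors deposited per peak a fold enrichment (a ratio), a −log10 p, a −log10 q and a score. The score repeats the −log10 q in whole numbers and was left unused. Strength percentiles rank peaks by −log10 p within their own list.

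Peaks were merged over lists when they overlapped or touched. Covered length was compared by exact permutation tests (NumPy 2.4.6, pandas 2.3.3, Python 3.11.15), with Benjamini-Hochberg adjustment over 6 measures. The covered share of 10 kb windows with a mean of at least 5%, on chromosomes 1 to 22 and X and the chromosome 6 haplotype sequences, was fitted with limma 3.58.1 (R 4.3.3; lmFit, eBayes with trend) and tried on simulated data first. The simulation used independent noise and a larger shift than any difference called in the MHC, so it does not gauge those calls. The members, lists and tests were chosen with earlier results of these data known. Regions were named by mean percentile within each part and haplotype, and windows by adjusted p; gaps, exclusive regions and counterparts were picked after their values were seen. The bounds of the class I, III and II parts (up to 31480000, up to 32350000, and beyond) are approximate and were set by hand after the files were seen. With no hg19 annotation, the planned gene lists were not used. Same-numbered libraries deviated together over windows (correlation 0.140 to 0.610 in 9 pairs, mean 0.407), so the numbers may pair the samples. Pairs with different numbers are not given for comparison. The main tests left such pairing out. Exact permutation p-values within replicate numbers are given for the 6 measures, and paired ones for some pairs of groups. Alternatives tried were stricter lists, other window sizes and minimums, scaling, a replicate block and leaving out each library.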

Additional observations from a re-analysis of the deposited data

How the results depend on the processing

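With all libraries kept, 105 recomputed values kept their direction and side of the threshold, 34 moved and 4 reversed; when each library was left out in turn, 156 kept them, 40 moved and 2 reversed. With the 20000 strongest peaks the CDK19KD to Control log2 ratio of covered length reversed, to -0.054 on the chromosome 6 MHC and -0.39 on the haplotype sequences, and that of CDK19KD to CDK8KD reversed at −log10 q of at least 5, to 0.23 on both. Leaving out libraries, CDK19KD to CDK8KD ran from -0.32 to 0.034 and from -0.33 to 0.042, reversing without CDK19KD replicate 2; CDK19KD to Control ran from 0.078 to 0.44 and from 0.01 to 0.41, and CDK8KD to Control from 0.26 to 0.54 and from 0.2 to 0.51. The variance taken up by group ran from 20.3% to 65.0% (chromosome 6 MHC), 14.2% to 54.2% (haplotype sequences), 9.35% to 61.0% (share of the list), 6.41% to 54.5% (class I), 35.3% to 62.1% (class III) and 21.3% to 63.1% (class II), with no exact permutation p under 0.0679. The cause of these moves was not tested.

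Haplotype and chromosome 6 windows called higher in CDK8KD than in Control, 4 in all, became 0 at −log10 q of at least 5, with the 20000 strongest peaks and on chromosomes 1 to 22 and X alone (a fit that leaves the haplotype sequences out), 2 after scaling to the list's length, and 0 to 5 over leave-outs. The count for CDK19KD above Control became 1 with 5 kb windows (0 to 1 over leave-outs). That for CDK19KD above CDK8KD became 1 with the 20000 strongest peaks, with no minimum and with 5 kb windows (0 to 1 over leave-outs). The 1 window lower in CDK19KD than in CDK8KD became 0 under each of these settings, on chromosomes 1 to 22 and X alone and in every leave-out, and 2 with a replicate block, which changed no other call.

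Of the exclusive regions, CDK19KD not Control (14) became 9 when 50% of the region had to be covered, 0 at −log10 q of at least 5 and 1 with the 20000 strongest peaks (14 to 48 over leave-outs). Control not CDK19KD (3) became 0 under each of the last settings and, with peaks of at least 500 bp, 1 (3 to 12). CDK8KD not Control (14) became 25, 0 and 0 (14 to 41). Control not CDK8KD (1) became 0, 0 and 0 (1 to 7). CDK19KD not CDK8KD (11) became 5, 0, 1 and, with peaks of at least 500 bp, 7 (11 to 35). CDK8KD not CDK19KD (6) became 10, 0 and 0 (6 to 19). Leaving out a library loosens the requirement, so these counts can only rise. Scaling by the log2 ratio and the leave-outs of window signs were chosen after seeing the data. The lists hold no depth, and peaks under their threshold are missing from them.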
